A study of Homo sapiens with 9 samples.

Results

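Trimethylation of lysine 27 on histone H3 (H3K27me3) is made by Polycomb repressive complex 2, with EZH2 as its enzyme. The complex can bind the mark that it makes, and H3K27me3 often forms domains that fade out around the sites of strongest binding. Acetylation of the same residue (H3K27ac) excludes trimethylation of that residue and marks active promoters and enhancers. In LNCaP, an established prostate cancer cell line, EZH2 has also been studied as an activator away from H3K27me3, and the series title names such roles.

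The peaks described here were EZH2 peaks of control cells that overlapped no listed control region of either mark but lay in a region listed for H3K27me3 after EZH2 knockdown. They were chosen from the control EZH2 list on chromosomes 1 to 22 and X by 3 calls, at 1 shared bp: no control H3K27ac region, no control H3K27me3 region, and at least 1 shEZH2 H3K27me3 region. They numbered 2629, which is 11.6% of the 22630 control EZH2 peaks on these chromosomes (95% exact binomial interval 11.2 to 12.04) and 48.6% of the 5406 peaks without a control mark (47.3 to 49.97). The whole list held 23060 peaks. All 4 lists come from measured values, so the absence of the control marks and the presence of the knockdown mark are how the peaks were chosen, not results. By the same calls 55.9% of all 22630 peaks lay in a shEZH2 H3K27me3 region.

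Control cells were LNCaP cells with the empty vector plko.1, and knockdown cells were LNCaP cells labelled shEZH2, infected with a lentivirus against EZH2. Both were fixed 2 to 3 days after infection in 1% paraformaldehyde, and the labels describe no other difference between the cells. EZH2, H3K27ac and H3K27me3 were each immunoprecipitated in both, with 1 library per group and no numbered hairpins or cultures in the labels. The title of the control EZH2 library reads EZH2(CST) and that of the shEZH2 library EZH2 alone. The titles thus do not say whether the EZH2 antibody was the same. The 6 libraries held 13331155 to 33289172 tags, and signal is given as normalised tags, scaled by the authors to 10000000 per library. With 1 library per group no difference could be set against a spread between cultures, and no p-value was computed. The 95% intervals cover counting error over peaks, and neighbouring peaks are not independent.

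The 2629 peaks were weak, close to the limit of the EZH2 call. The median was 9 normalised tags (interval 8.25 to 9, quartiles 7.50 and 10.5), which is 12 tags in the library. The call threshold was 9 tags or 6.75 normalised tags. It was not a strict floor on the deposited tags, which went down to 5.25 at these peaks (7 in the library). Counting error alone gives a peak of 12 tags a range of 4.65 to 15.7 normalised tags (exact Poisson). Only 192 of them (7.30%) held at least 15 normalised tags, against 40.4% of the 9461 EZH2 peaks that lay on control H3K27me3 alone, whose median was 12.8. The 2777 unmarked EZH2 peaks outside shEZH2 H3K27me3 were weaker still, with a median of 8.25 tags and 4.32% at 15 or more. The median fold over the surrounding 10 kb was 7.76, between the 7.04 of peaks on H3K27me3 alone and the 8.68 of the other unmarked peaks.

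These peaks lay closer to control H3K27me3 than the other unmarked peaks did. The nearest control H3K27me3 region was within 1 kb of 1357 peaks (51.6%, 49.7 to 53.5) and within 10 kb of 1951 (74.2%, 72.5 to 75.9). The median distance was 882 bp (776 to 1022), with quartiles of 211 and 10643 bp. Over all 22630 control EZH2 peaks, many of them on the mark, the shares were 51.5% and 59.6% and the median was 601 bp. For the other unmarked peaks the median was 32068 bp, and 5.87% lay within 1 kb. An EZH2 peak on control H3K27me3 alone lay within 10 kb of 25.5% of the 2629 peaks and of 6.52% of the other unmarked peaks, a difference of 19.0 percentage points (17.1 to 20.9). At the other extreme, 195 peaks (7.42%) were more than 100 kb from any control H3K27me3 region. Of the 98450 shEZH2 regions on these chromosomes 62303 held no control region and the rest did, so some of the nearness comes with the choice of peaks inside a shEZH2 region. Another control EZH2 peak of any kind lay within 10 kb of 39.1% of the 2629 peaks, against 29.7% of the other unmarked peaks (a difference of 9.39 points, 6.86 to 11.9), 60.8% of those on H3K27me3 alone and 46.5% of all control EZH2 peaks.

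**Figure D1:**
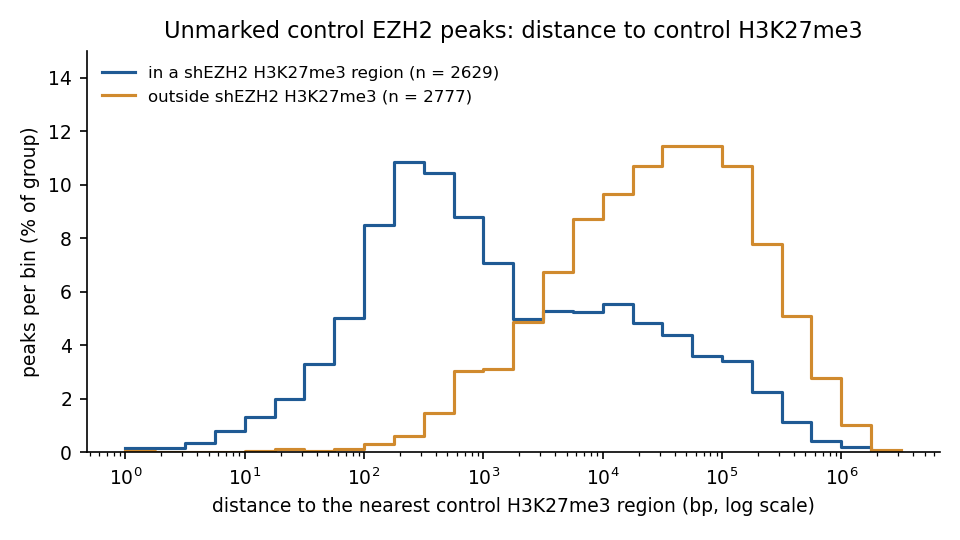
Distance from each unmarked control EZH2 peak to the nearest control H3K27me3 region (horizontal axis, bp on a log scale), as the percent of each group per bin (vertical axis), for the 2629 peaks inside a shEZH2 H3K27me3 region and the 2777 outside. The first group has its mode between 100 and 1000 bp and a long shoulder to the right, and 5.87% of the second lies within 1 kb.

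Control and knockdown H3K27me3 lists were not called alike. The control call threshold was 13 tags in 150 bp, or 26.0 normalised tags per kb. The shEZH2 threshold was 25 tags in 1000 bp, or 9.53 per kb. Per kb, over windows of unlike width, the control threshold was thus 2.73-fold higher. Neither was a strict floor on the deposited tags. Listed shEZH2 regions went down to 7.62 normalised tags and to 6.80 per kb, and some listed control regions also held fewer tags than their threshold. The shEZH2 regions at the 2629 peaks had a median of 13.5 tags per kb (13.3 to 13.7, quartiles 11.5 and 16.6) over a median width of 2399 bp. This was above the median over all shEZH2 regions, 11.4 per kb, and below the 21.1 at EZH2 peaks on H3K27me3 alone. A mean of at least 26.0 per kb was reached at 70 of the 2629 peaks (2.66%, 2.08 to 3.35), against 25.1% of the peaks on H3K27me3 alone that lay in a shEZH2 region and 1.57% of all regions. A region below that mean can still hold windows above it. The control list gives no tags outside its regions, so the control signal at the 2629 peaks could not be compared with the knockdown signal, and the part that the unlike calls played was not tested.

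**Figure D2:**
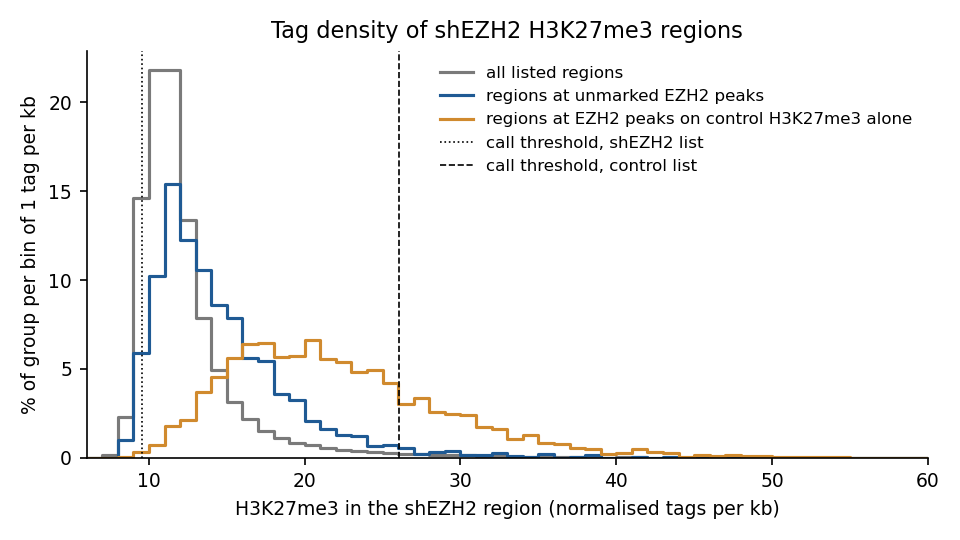
Density of H3K27me3 in shEZH2 regions (horizontal axis, normalised tags per kb, drawn up to 60) as the percent of each group per bin, for all listed regions and for those at the 2629 unmarked EZH2 peaks and at EZH2 peaks on control H3K27me3 alone, counted per peak. The regions at unmarked peaks have a median of 13.5, between the 11.4 of all listed regions and the 21.1 at peaks on H3K27me3 alone. The shEZH2 threshold is 9.53 (dotted line), and 2.66% of the unmarked peaks lie in a region at or beyond the control threshold of 26.0 (dashed line).

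Density was lower at peaks farther from control H3K27me3. The regions at the 629 peaks within 200 bp of a control region had a median of 16.1 tags per kb, those at 728 peaks from 200 bp to 1 kb 15.1, those at 594 peaks from 1 to 10 kb 12.2, those at 483 peaks from 10 to 100 kb 11.8, and those at the 195 farthest 11.1. Median widths went from 3563 bp in the nearest group to 1257 bp in the farthest. Median EZH2 went from 9.75 to 8.25 normalised tags over the same groups, a difference of 2 tags in the library. Across the 2629 peaks, Spearman's rho was -0.52 between distance and density and 0.32 between EZH2 tags and density. These are descriptions over peaks of the same libraries, and peaks in one region share its density.

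The 2629 peaks lay in 2536 shEZH2 regions, and by the place of control regions inside the same shEZH2 region they fell into 3 groups. Control H3K27me3 lay on both sides of 489 peaks, which thus sat between stretches already listed in control cells. It lay on 1 side only of 1045 peaks. The other 1095 were in shEZH2 regions that held no control region. Of the 2536 regions, 1470 held a control region, and a median of 16.6% of their length was covered by control regions, against 32.3% for shEZH2 regions with an EZH2 peak on H3K27me3 alone. The peaks between control regions held a median of 9.75 EZH2 tags in regions of 17.5 H3K27me3 tags per kb, those with control regions on 1 side 9 and 14.7, and those without a control region 8.25 and 11.7. Among the last group, 1 peak of 1095 lay in a region of at least 26.0 tags per kb and 18 (1.64%) had at least 15 EZH2 tags.

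**Figure D3:**
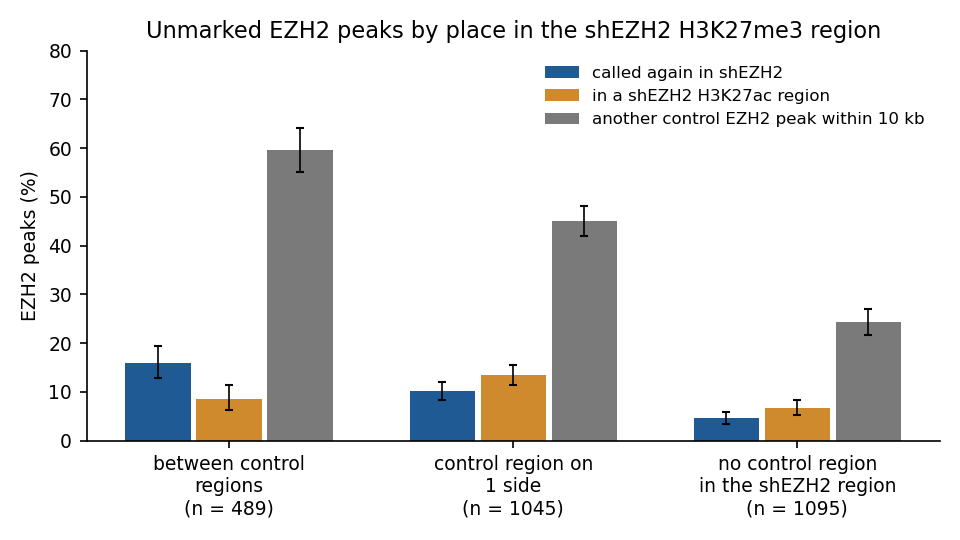
Shares of the 2629 peaks (vertical axis, percent, with 95% exact binomial intervals) that were called again in shEZH2, lay in a shEZH2 H3K27ac region or had another control EZH2 peak within 10 kb, by whether control H3K27me3 lay on both sides, on 1 side or nowhere in the same shEZH2 region. Shares called again were 15.95%, 10.1% and 4.57%, and shares with a neighbouring EZH2 peak 59.7%, 45.0% and 24.3%.

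EZH2 was called again in knockdown cells at few of these peaks. A shEZH2 EZH2 peak overlapped 234 of the 2629 (8.90%, 7.84 to 10.1), where 22.6% of all 22630 control peaks were called again. Of the other unmarked peaks 272 of 2777 (9.79%, 8.71 to 10.96) were called again, and of those on H3K27me3 alone 2925 of 9461 (30.9%, 30.0 to 31.9). The difference was -0.894 percentage points (-2.45 to 0.663) from the other unmarked peaks and -22.02 points (-23.4 to -20.5) from the peaks on H3K27me3 alone. The shEZH2 call threshold was 6.89 normalised tags per window, or 45.6 per kb. It was not a strict floor on the deposited tags, as the shEZH2 peaks at these sites held as few as 6.20. In control, 1304 of the 2629 peaks (49.6%) held less than 45.6 per kb, against 18.2% of the peaks on H3K27me3 alone. Such peaks could still be called again.

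At equal score, the order of these differences was the opposite. The deposited score is the caller's own measure of peak height. At equal score the difference from peaks on H3K27me3 alone was -0.751 points (-2.03 to 0.525), an interval that includes 0. At a score of 9 the 2629 peaks were called again less often (1.34%, 0.715 to 2.28, against 3.55%, 2.56 to 4.79). The order of the shares was the opposite at 16 to 20 (41.3%, 33.1 to 49.8, against 35.9%, 33.3 to 38.5). It was also the opposite at 21 or more (78.7%, 69.1 to 86.5, against 68.3%, 66.5 to 69.99). In both of these upper bins the intervals overlap. The last bin spans scores of 21 to 78 here and 21 to 222 at peaks on H3K27me3 alone, so scores within it are not equal. Against the other unmarked peaks the value was -4.17 points (-5.48 to -2.86). At scores of 13 to 15, 39 of 260 of the 2629 peaks (15%, 10.9 to 19.9) were called again, against 75 of 216 other unmarked peaks (34.7%, 28.4 to 41.5). At 16 to 20 they were 59 of 143 (41.3%) and 49 of 97 (50.5%, 40.2 to 60.8). At scores of 21 or more the shares were 74 of 94 (78.7%, 69.1 to 86.5) and 34 of 39 (87.2%, 72.6 to 95.7), and in both of these bins the intervals overlap. Long gaps in the listed regions often mark centromeres and other repeated sequence. Within 2 Mb of the longest gap of a chromosome, 69 of 200 other unmarked peaks were called again (34.5%), against 25 of 163 of the 2629 (15.3%). Without these peaks the difference at equal score was -2.92 points (-4.20 to -1.64), and in the bin from 16 to 20 the order turned, at 57 of 134 (42.5%) against 30 of 76 (39.5%).

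**Figure D4:**
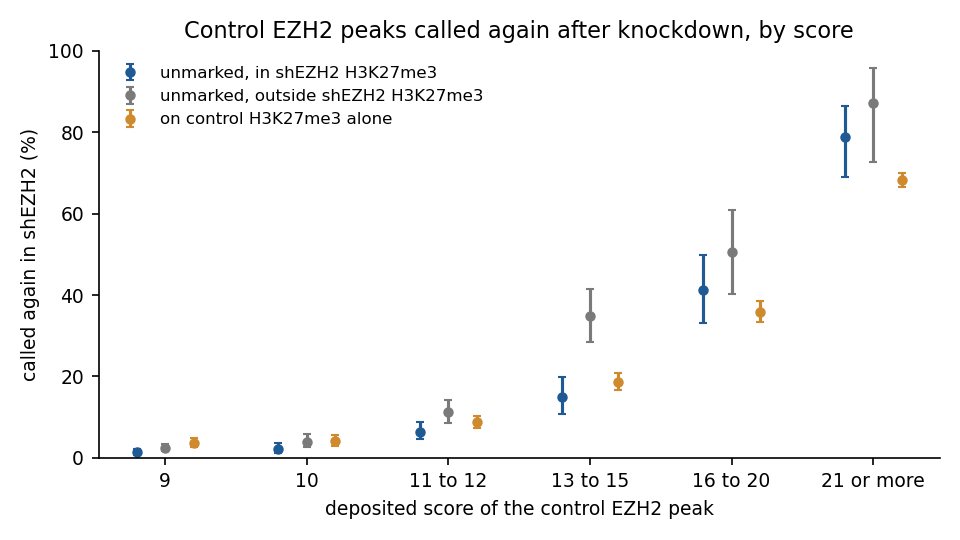
Share of control EZH2 peaks called again in shEZH2 (vertical axis, percent, with 95% exact binomial intervals) by the deposited score of the control peak (horizontal axis), for the 2629 unmarked peaks in shEZH2 H3K27me3, the 2777 unmarked peaks outside it and the 9461 peaks on control H3K27me3 alone. All 3 groups climb with the score, from under 4% at a score of 9 to 78.7%, 87.2% and 68.3% at 21 or more.

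Among the 2629 peaks, those near control H3K27me3 were called again more often, along with their higher scores. Within 1 kb of a control region 12.7% were called again and farther away 4.87%, a difference of 7.80 points (5.67 to 9.95) that was 0.766 (-0.963 to 2.50) at equal score. By quartile of H3K27me3 density in the shEZH2 region, the shares were 5.32%, 6.24%, 7.31% and 16.7%, and the median EZH2 was 8.25 tags in the lower 3 and 9.75 in the highest.

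At the 234 peaks called again, the EZH2 signal per kb had a median log2 ratio of shEZH2 over control of -0.24 (-0.35 to -0.14), and 152 of them (65.0%) were lower in shEZH2. The shEZH2 windows were narrower than the control windows, which adds 0.28 to every ratio per kb. On tags per peak, without that scaling, the median was -0.51 (-0.63 to -0.42) and 190 were lower. Taken 1 by 1, with exact intervals for the split of the tags, 19 were lower and 5 higher than control per kb beyond counting error, and 55 and 2 on tags. The ratio differed with the score of the control peak. The tags of that peak are also the denominator, so counting error alone pulls the ratio down at high scores and up at low ones. How much of the difference this made was not tested. The ratio was -0.55 (-0.70 to -0.47) at 133 peaks with a score of 16 or more. It was 0.15 (0.02 to 0.26) at 101 with a lower score, which had to reach the shEZH2 threshold to be counted. On tags these were -0.82 (-0.98 to -0.75) and -0.12 (-0.26 to -0.02), so the direction at the weaker peaks turned with the scale. Near the longest gaps the median was 0.24 per kb (-0.03 to 0.53, n = 25) and -0.04 on tags (-0.30 to 0.26). At peaks on H3K27me3 alone that were called again the median was -0.64 per kb (-0.66 to -0.62) and -0.92 on tags, and at the other unmarked peaks 0.24 per kb (0.15 to 0.28) and -0.04 on tags (-0.12 to 0.0035). These groups differ in strength, and the shEZH2 threshold selects among the weak ones, so the medians do not rank their change in EZH2.

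In knockdown cells, H3K27ac was listed at fewer of these peaks than at the other unmarked ones, which lay nearer to control H3K27ac. Listed shEZH2 H3K27ac covered 255 of the 2629 (9.70%, 8.59 to 10.9), where 41.4% of all 22630 control EZH2 peaks lay in a shEZH2 H3K27ac region. The share was 27.9% of the other unmarked peaks, a difference of -18.2 points (-20.2 to -16.2), and 6.68% of the peaks on H3K27me3 alone, a difference of 3.02 points (1.83 to 4.31). At equal score these differences were -20.7 points (-22.6 to -18.8) and 7.58 points (6.27 to 8.88). The 2 groups of unmarked peaks were split by shEZH2 H3K27me3, which H3K27ac excludes on the same residue. Some of the difference between them may thus come with the choice of peaks, and that part was not tested. The H3K27ac regions at the 255 peaks had a median of 13.6 tags per kb, against 15.9 over all shEZH2 H3K27ac regions on these chromosomes. The median distance to control H3K27ac was 55085 bp for the 2629 peaks and 13177 bp for the other unmarked peaks, with 3.65% and 15.6% within 1 kb. Among those in shEZH2 H3K27ac, the medians were 13574 and 1001 bp. Of the 255 peaks, 77 (30.2%) lay within 1 kb of a control H3K27ac region. The shEZH2 H3K27ac list was also called in wider windows than the control list, and the part of this in the shares was not tested. The 255 peaks held a median of 11.3 EZH2 tags, and 81 of them (31.8%, 26.1 to 37.9) were called again, against 6.44% of the 2374 without H3K27ac. At equal score that difference was 9.09 points (3.57 to 14.6).

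The 10 peaks with most EZH2 tags included 4 within 2 Mb of a chromosome's longest gap, led by chromosome X from 58561323 to 58561505 with 300 tags, 74.51-fold above its surroundings. Its clonal fold, the observed over the expected tags per position, was 1.99, and it held 321.1 tags in shEZH2, a log2 ratio of 0.37 per kb (0.18 to 0.57) and 0.10 on tags (-0.10 to 0.29). Away from the gaps, the strongest were neighbours on chromosome 1 (hg19), from 228194721 to 228194903 with 47.3 normalised tags (63 in the library) and from 228194328 to 228194510 with 42.8 (57 in the library). Both were called again in shEZH2, with 25.5 and 22 tags, and their log2 ratios per kb were -0.61 (exact interval -1.24 to -0.01) and -0.68 (-1.35 to -0.03). The next was a peak of 42 tags on chromosome 10, from 22610971 to 22611153, 28.08-fold above its surroundings. It lay 31 bp from control H3K27me3 and 368 bp from control H3K27ac, and its shEZH2 H3K27me3 region was only 1001 bp wide with 10.3 tags, while the shEZH2 H3K27ac region there held 143 tags. Called again with 14.5 tags, this peak had a log2 ratio of -1.26 (-2.06 to -0.51).

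A few regions were dense in knockdown cells and almost empty in the control list. Away from the longest gaps, 1421 shEZH2 H3K27me3 regions had at least 26.0 tags per kb. Control regions covered less than 10% of the length of 5 of them. These 5 were chosen after their values were seen. Each held a control EZH2 peak, and 4 held peaks of this set. Where control H3K27me3 is scarce, the rule puts most EZH2 peaks outside control H3K27ac in this set, so that count is not a result. Of the 1421, 40 held peaks of this set and an EZH2 peak on H3K27me3 alone, and 12 held peaks of this set without one. The 57 regions of this density with peaks of this set, 5 of them near the longest gaps, were covered to a median of 51.1%. On chromosome 1 from 228191407 to 228202351, which holds the neighbouring peaks above, the shEZH2 list gave 417.7 tags over 10945 bp, or 38.2 per kb, and the control list 2 regions of 302 bp in all. Its 4 EZH2 peaks, all of this set, held 12.8 to 47.3 tags, and 2 were called again. On chromosome 8 from 132050404 to 132057181 there were 237.4 tags, or 35.0 per kb, over 6778 bp, of which 1 control region covered 2.23%. That region held 5 EZH2 peaks, more of this set than any other, with 18 to 31.5 tags, and 3 were called again. On chromosome 2 from 137521643 to 137525889, at 29.2 per kb, control regions covered 404 of 4247 bp, and 1 of 2 EZH2 peaks was called again. The region on chromosome 4 from 120723661 to 120724661 was 1001 bp wide at 43.1 per kb with no control region. Its EZH2 peak held 12.8 normalised tags in control and 20.7 in shEZH2, a log2 ratio of 0.97 per kb (0.07 to 1.92) and 0.70 on tags (-0.21 to 1.65), an interval that includes 0, and was 38-fold above its surroundings in control. None of these 4 regions held H3K27ac in either list. The knockdown and the unlike calls of the control and shEZH2 lists cannot be told apart there. Among the 10 peaks with most shEZH2 EZH2 tags, 1 away from the gaps had an interval above 0 on both scales. It lay on chromosome 7 from 45291544 to 45291726, 21 bp from control H3K27me3, with 18.8 tags in control and 34.4 in shEZH2. Its log2 ratio was 1.15 per kb (0.43 to 1.91) and 0.88 on tags (0.16 to 1.63). Ranking by shEZH2 tags, the numerator of the ratio, favours high ratios, and the intervals were not corrected for the number of peaks. Of those 10 peaks, 6 lay near the longest gaps.

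**Figure D5:**
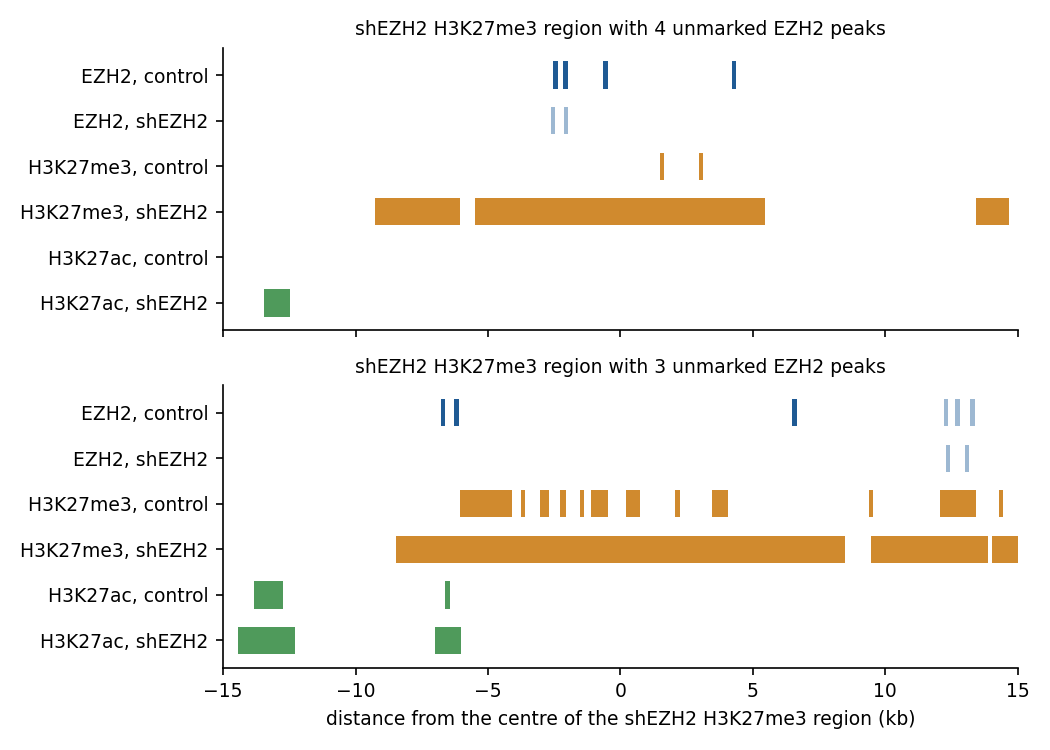
Listed regions of the 6 libraries around 2 shEZH2 H3K27me3 regions of chromosome 1, by distance from the region's centre (kb), with the unmarked EZH2 peaks in dark blue and other EZH2 peaks in light blue. In the upper region, 4 unmarked peaks lie in 10945 bp of shEZH2 H3K27me3 with 302 bp of control H3K27me3, and in the lower one 2 lie to the left and 1 to the right of all 9 control regions in the shEZH2 region.

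The lower region of that map, on chromosome 1 from 35329952 to 35346920, was listed in parts in control cells. It was 16969 bp wide at 19.9 tags per kb, and control regions covered 4731 bp of it. Its 3 peaks lay outside the span of those 9 control regions. They held 6.75 to 15.8 tags and none was called again. The region also held 1 control and 1 shEZH2 H3K27ac region. The shEZH2 one covered the peaks of 15.8 and 14.3 tags, and the control one lay beside the first. A region on chromosome 11 from 123442690 to 123455217 was similar in H3K27me3 but held no H3K27ac region in either list. It had 3 peaks, 19.7 tags per kb, 4165 of 12528 bp covered by control H3K27me3 regions and no peak called again. On chromosome 18 from 30347457 to 30354136 the 3 peaks held 19.5 to 27 tags, and all 3 were called again.

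The 10 peaks farthest from control H3K27me3, at 715414 to 1362458 bp, were all weak, with 6 to 10.5 tags. None was called again and none lay in shEZH2 H3K27ac. Their shEZH2 regions had 9.52 to 16.5 tags per kb, near the threshold. On chromosome 2 from 188988526 to 188988708, for example, the EZH2 peak held 8.25 tags (11 in the library) and its region 11.1 tags over 1001 bp.

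At the edges of the rule, the 203 peaks only partly covered by their shEZH2 region had a median of 9 tags and 28 were called again (13.8%), and the 112 unmarked peaks that missed one by up to 200 bp had 8.25 tags and 10 were called again (8.93%). The 629 peaks within 200 bp of control H3K27me3 had a median of 9.75 tags and 86 called again (13.7%), and the 697 peaks with less than 50% of their length in control H3K27me3 had 9 tags and 104 called again (14.9%). By chromosome, the set made up from 8.74% of the control EZH2 peaks (chromosome 16, 94 of 1076) to 21.4% (chromosome X, 48 of 224, interval 16.2 to 27.4). On X it was 53.9% of the unmarked peaks (43.0 to 64.6), whose interval includes the 48.6% of all chromosomes together.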

How the data were processed

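Per the submitters' processing notes, the tools were BWA 0.6.1 and HOMER 4.1 and the build hg19. Per the file headers, each library was called alone without input. For EZH2 the peaks were windows of 183 bp (control) or 151 bp (shEZH2) at a false discovery rate of 0.001 and 4-fold over 10 kb. Control histone lists joined windows of 150 bp at that rate, and shEZH2 lists windows of 1000 bp at a Poisson probability of 0.001. The deposited signal is tags scaled by the authors to 10000000 per library. The deposited score ranks or stratifies peaks. The deposited fold over local background and clonal fold ratio describe peaks. The deposited focus fraction and local p-value were not used.

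Samples were grouped by title. The other 3 of 9 samples were not analysed here. Overlap meant 1 shared bp. Shares have exact binomial (Clopper-Pearson), differences Newcombe and medians order-statistic 95% intervals, and equal-score values used Mantel-Haenszel weights. The members and lists were chosen with earlier results of these data known. Named regions are the top 10 by EZH2 tags, by density of regions with at least 50 tags, by distance and by shEZH2 EZH2 tags, and the 5 regions with most members. Others are stated as chosen after their values were seen. Neither annotation nor sequence of hg19 was used, so gene lists, the cell line's markers and sequences are not analysed here. Overlap code was tested on simulated lists and gave the numbers of bedtools 2.31.1. Software was matplotlib 3.10.9, scipy 1.17.1, pandas 2.3.3 and numpy 2.4.6 under Python 3.11.15. Alternatives were 50% of the peak overlapped, the upper 50% of the EZH2 or shEZH2 H3K27me3 list by score, autosomes, distances of 1 kb and equal score.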

Additional observations from a re-analysis of the deposited data

How the results depend on the processing

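Requiring 50% of the peak in shEZH2 H3K27me3, autosomes alone and leaving out the longest gaps moved none of the 10 values recomputed for these peaks beyond its interval. Without the gaps, however, the share of the other unmarked peaks called again was 7.88%, below its interval, and the difference from the other unmarked peaks was 0.598 points. With the upper 50% of the shEZH2 H3K27me3 list, 1677 peaks remained, of which 56.5% lay within 1 kb and 76.4% within 10 kb of control H3K27me3 and 41.1% near another EZH2 peak, at a median density of 14.4, and the difference from the other unmarked peaks was 0.349 points. The interval of that difference includes 0 in both settings. With the upper 50% of the EZH2 list, 687 peaks had a median of 12 tags and a density of 15.6. Of these, 70.6% and 83.8% lay within 1 and 10 kb, 25.04% in shEZH2 H3K27ac, and 27.4% were called again, -7.81 points from the other unmarked peaks and -16.5 from those on H3K27me3 alone. Counting a shEZH2 peak within 1 kb, 13.6% were called again, -33.4 points from peaks on H3K27me3 alone. At equal score the 2 differences were -4.17 and -0.751, with quartiles of local fold also matched -3.90 and -1.10, and at equal score without the gaps -2.92 and -0.813. The last 2 settings and leaving out the gaps were chosen after seeing the data. Peaks more than 1 kb from control H3K27me3 were called again in 4.87%, lay in shEZH2 H3K27ac in 5.82% and near another EZH2 peak in 27.3%, at a density of 11.9. With no control region of either mark within 1 kb, 1233 peaks remained. The cause of these shifts was not tested. No paired analysis was possible because each group held 1 library. Per peak rather than per kb, the median log2 ratio at peaks called again was -0.51, another setting chosen after seeing the data. Depth limits single peaks, as the median peak rested on 12 tags.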
